A study of Mus musculus with 4 samples.

Results

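Nos1, Nos2, Arg1, Gch1, Cav1 and Ptgir are 6 genes of nitric oxide, arginine and prostacyclin signalling. They were followed in cardiac endothelium, the cells that line the vessels of the heart, after mice had received lipopolysaccharide (LPS), a bacterial surface molecule that Toll-like receptor 4 detects. The oligonucleotides were taken by exact gene symbol, which gave 6 of the 12172 oligonucleotides with 1 symbol, or 6 of 11138 genes, each with 2 spots. The 6 names were chosen by their log2 ratios on these same arrays, so every ratio below is a description with no test. Amplified RNA of mice given LPS into the peritoneum was set against RNA of mice given saline, 4 h and 24 h after injection, on 2 arrays per time with 2 colours each. On replicate 1 of each time LPS RNA carried Cy5, and on replicate 2 the dyes were exchanged. No genetic change is named for either group, and the labels give no strain, age, LPS dose or number of animals.

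The labels do not say that the dye-reversed arrays came from other animals or extracts, so the pair of a time counted as 1 replicate, and its spread covers array and dye error only. Values are log2 ratios of LPS over saline. The deposited table does not state its direction, which was taken as likely from the dyes in the labels. The deposited ratios of the 2 arrays of a time correlated at -0.056 at 4 h and -0.064 at 24 h over all spots. Where an oligonucleotide had well-matched spots (a gap of at most 0.5 log2 units) and a change of 2-fold or more on each array, opposite deposited signs were found in 180 of 186 cases at 4 h and in 435 of 458 at 24 h. The sign of replicate 2 was therefore turned, a choice made after seeing these data. If the table held the other direction, every higher value below would be lower. If its arrays already ran alike, 0 of the 6 genes would be called at 4 h and 0 at 24 h. The table holds ratios and no intensities, so the level of any gene, endothelial markers included, could not be read. Fewer cells of a type and less RNA per cell cannot be told apart in such ratios.

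Nitric oxide is made from arginine by 3 synthases, the neuronal Nos1, the inducible Nos2 and the endothelial Nos3, which need tetrahydrobiopterin as a cofactor. It relaxes vessels through soluble guanylate cyclase and cyclic GMP. Arginase competes with the synthases for arginine, and caveolin-1 binds endothelial nitric oxide synthase in the membrane pits called caveolae and holds it inactive. Prostacyclin, a lipid mediator released by endothelium, acts through its own receptor and cyclic AMP to relax vessels and restrain platelets.

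A gene was called where the mean of its spots lay at least 1 log2 unit, which is 2-fold, from 0 on the same side on both arrays of a time. By this rule 362 genes were called at 4 h and 780 at 24 h. With the signs turned, 158 genes at 4 h and 411 at 24 h were 2-fold on both arrays but in opposite directions. The arrays thus agreed less well over all genes than over the oligonucleotides with well-matched spots. At 4 h, 2 of the 6 genes were called, Gch1 higher and Ptgir lower, against 3.25% of all 11138 genes. At 24 h, 4 of the 6 were called, against 7.00% of all genes. Of these, 3 were lower (Nos1, Nos2 and Arg1), against 3.52% of all genes, and Cav1 was higher. No gene of the 6 had a call at both times. The overlap of the calls between the times was not counted over all genes, so its absence here is not read as a trait of the 6. As the genes were picked on these ratios, nothing is read from their counts against those shares.

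**Figure D1:**
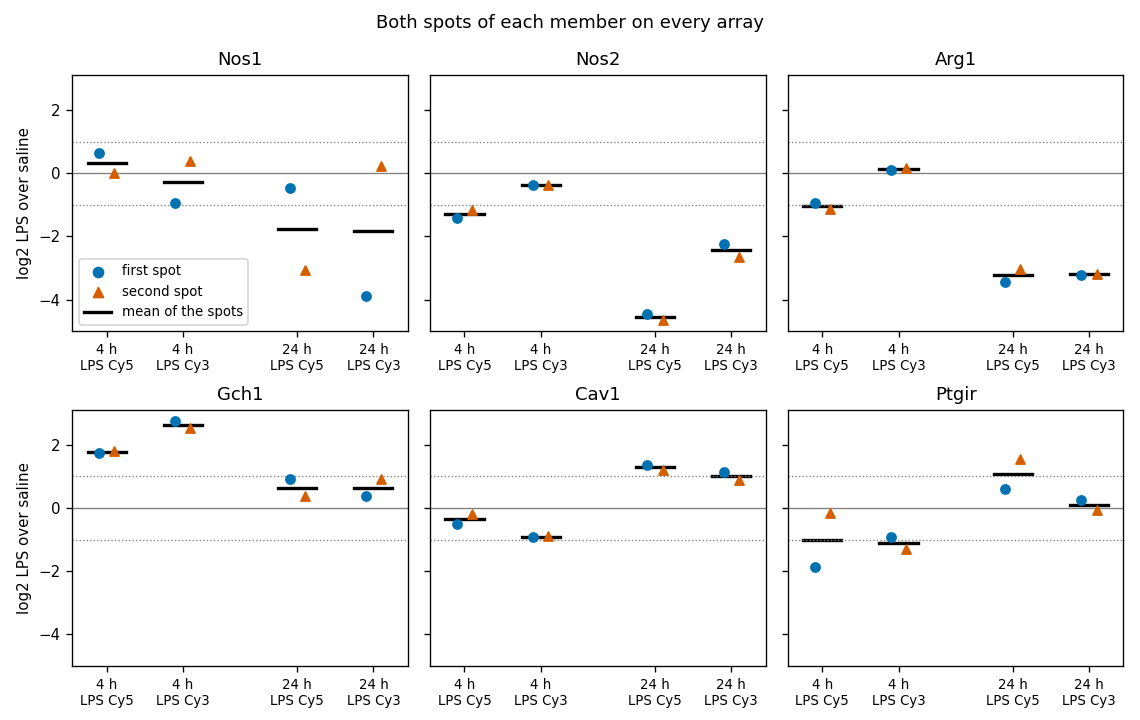
Log2 ratio of LPS over saline (vertical axis) on the 4 arrays (horizontal axis) for each of the 6 genes. Circles and triangles are the 2 spots of the oligonucleotide, black bars their mean, and dotted lines mark 2-fold. The spots of Nos2, Arg1 and Cav1 lie within 0.5 log2 units of each other on every array, and those of Gch1 do so at 4 h. Those of Nos1 at 24 h lie 2.60 and 4.11 log2 units apart.

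Agreement of the spots differed among the 6 genes. In 16 of the 24 combinations of a gene and an array the gap between the spots was at most 0.5 log2 units, and in 4 it was over 1 unit. Over all 12172 named oligonucleotides, 50.6% to 71.2% had spots within 0.5 units, depending on the array. Of the 4 wide gaps, 3 belonged to Nos1 and 1 to Ptgir. Where every single spot had to be 2-fold, 1 of the 6 genes was called at 4 h, Gch1, against 1.57% of all genes. At 24 h 2 were called by this rule, Nos2 and Arg1, against 3.65% of all genes.

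Gch1 encodes GTP cyclohydrolase 1, the first and rate-limiting enzyme of tetrahydrobiopterin synthesis. At 4 h its log2 ratio was 1.77 on the array with LPS in Cy5 and 2.64 on the dye-reversed array, a mean of 2.20 ± 0.61 (SD, n = 2 arrays) or 4.61-fold. The 4 spots ran from 1.76 to 2.74, so that all of them lay above 2-fold, and 150 of the 11138 genes had a higher mean. At 24 h the ratios were 0.63 and 0.64, a mean of 0.64 ± 0.01 or 1.56-fold. The spots of 24 h, from 0.37 to 0.91, were all above 0 and all below 2-fold, and none reached the lowest spot of 4 h. The mean at 24 h minus that at 4 h was -1.57 log2 units.

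The bases just before the annotated start of Gch1 are shown because it was the member with the highest ratio at 4 h. The sequence is the RefSeq one of GRCm38.p6, chr14:47189414-47189663 on the minus strand, written 5′ to 3′, with matches to the searched motifs in capitals.
Gch1: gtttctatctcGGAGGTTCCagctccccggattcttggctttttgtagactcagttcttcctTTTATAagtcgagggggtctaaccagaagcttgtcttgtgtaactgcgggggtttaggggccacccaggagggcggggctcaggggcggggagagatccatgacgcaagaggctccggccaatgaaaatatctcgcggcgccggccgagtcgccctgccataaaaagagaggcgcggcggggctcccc
Windows from 250 bases before to 50 bases after the start were searched on both strands for GGANNNNCC (an NF-kB-like core), GAAANNGAA (an interferon response element core), TTCNNNGAA (a gamma-activated site core) and TATAAA. No motif hit overlapped another in these windows, apart from a stretch whose letters match GGANNNNCC on each strand. Gch1 held that stretch, GGAGGTTCC, at -239 and TATAAA on the opposite strand at -188. Of 32851 windows in the RefSeq table, 48.4% held GGANNNNCC and 13.6% held TATAAA. GAAANNGAA was held by 8.56% of windows and TTCNNNGAA by 8.30%, and neither was in the window of Gch1.

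Nos2, the inducible nitric oxide synthase, is known from macrophages as a gene that LPS and cytokines switch on. Here its ratios were -1.29 and -0.37 at 4 h, a mean of -0.83 ± 0.65, and it was not called. At 24 h the ratios were -4.55 with LPS in Cy5 and -2.44 with LPS in Cy3, a mean of -3.50 ± 1.49 or 11.3-fold lower. Its 4 spots of 24 h lay between -4.64 and -2.24, below every spot of 4 h, and only 8 of 11138 genes had a lower mean. The arrays of 24 h differed by over 2 log2 units in size but not in side, and its spots within an array were 0.167 and 0.414 units apart. The difference of the times was -2.67.

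Arg1, arginase 1, splits arginine into ornithine and urea, and is a known marker of alternatively activated macrophages. Its ratios at 4 h fell on opposite sides of 0, at -1.05 and 0.12, with a mean of -0.46 ± 0.83. At 24 h they were -3.23 and -3.20, a mean of -3.22 ± 0.02 or 9.30-fold lower. The spots of 24 h ran from -3.43 to -3.04, and 18 genes had a lower mean. The mean of 24 h minus that of 4 h was -2.75 log2 units. Arg1 and Nos2, which use the same amino acid, were thus both low at 24 h, with arrays of similar ratio for Arg1 and of unequal ratio for Nos2.

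Both genes are also expressed by macrophages, and Nos1 by heart muscle and neurons, so marker ratios of other cells are given beside them. Of 16 macrophage and monocyte markers measured, 0 were called at 4 h and 0 at 24 h, with median log2 ratios of -0.09 and -0.38. Of 13 neutrophil markers 0 were called at 4 h, and at 24 h S100a8, S100a9 and Fpr2 were higher and Ngp was lower, with a median of -0.13. Of 16 cardiomyocyte markers 0 were called at 4 h and 1, Ryr2, was lower at 24 h, with medians of -0.25 and -0.09. Of 16 endothelial markers Cldn5 was higher and Kdr and Eng were lower at 4 h, and Kdr and Eng were higher at 24 h, with medians of 0.01 and 0.25. Kdr, a receptor of vascular endothelial growth factor, had means of -1.89 ± 0.75 at 4 h and 2.21 ± 0.48 at 24 h, and Eng, a co-receptor of the transforming growth factor beta family, had -1.87 ± 0.84 and 3.91 ± 0.85. Cldn5 went the other way, with 1.29 ± 0.10 at 4 h and -0.66 ± 0.86 at 24 h, and the other endothelial markers were called at neither time. Cav1 and Ptgir had the order of signs of Kdr and Eng and not that of Cldn5. The order of Kdr and Eng was found in 719 of all 11138 genes (6.46%). Signs of the uncalled endothelial markers were not compared. Cav1 was not called at 4 h, and Ptgir was not called at 24 h. The part of endothelial markers in the ratios of Cav1 and Ptgir was not tested. Over all genes, 3.25% were called at 4 h and 7.00% at 24 h, and the median was -0.02 at both times. At such shares, a count of 0 in a list this short says little. The part of cell mixture in the ratios of Nos2, Arg1 and Nos1 was not tested.

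Nos1, the neuronal synthase that is also found in heart muscle, had ratios of 0.33 and -0.28 at 4 h, a mean of 0.03 ± 0.43, which put the arrays on opposite sides of 0. At 24 h its ratios were -1.76 and -1.83, a mean of -1.80 ± 0.05 or 3.47-fold lower. This small SD stood beside spots that disagreed. The first spot stood at -0.46 with LPS in Cy5 and at -3.88 with LPS in Cy3. The second stood at -3.06 and at 0.22. No spot was 2-fold on both arrays, and on the Cy3 array of 24 h only 3.57% of named oligonucleotides had spots farther apart. One of the 4 h spots had a deposited ratio of exactly 1. The call of Nos1 therefore rested on the averaging of its spots, and with the first or the second spot alone Nos1 was not called at 24 h.

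The third synthase, Nos3, is the isoform of endothelium. Its ratios were 0.05 and -0.10 at 4 h and 0.40 and 0.25 at 24 h, all within 2-fold of 1, with means of -0.02 ± 0.10 and 0.32 ± 0.11. The second array of 24 h averaged spots at -0.49 and 0.98, on opposite sides of 0, so the SD between arrays does not cover the gap between its spots. At 24 h the means of the synthases were -3.50 for Nos2, -1.80 for Nos1 and 0.32 for Nos3. The values of Nos1 and Nos2 differed by 1.70 log2 units, a gap smaller than that between the spots of Nos1.

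Cav1 encodes caveolin-1, the main coat protein of endothelial caveolae. Its ratios at 4 h were -0.35 and -0.90, a mean of -0.63 ± 0.39, below 0 on both arrays but short of 2-fold. At 24 h they were 1.29 and 1.01, a mean of 1.15 ± 0.19 or 2.22-fold higher. The spots of 24 h were 1.36 and 1.21 with LPS in Cy5 and 1.14 and 0.89 with LPS in Cy3, so that 1 of the 4 was under 2-fold. All 4 spots of 4 h were below 0 and all 4 of 24 h above it. The difference of the times was 1.78. Cav2, which forms complexes with caveolin-1, had ratios of -0.51 and -2.90 at 4 h and 0.83 and 0.59 at 24 h, on the same sides of 0 as Cav1, and was called at neither time.

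Ptgir encodes the prostacyclin receptor, which signals through cyclic AMP. Its ratios at 4 h were -1.02 and -1.10, a mean of -1.06 ± 0.06 or 2.08-fold lower, just past the 2-fold line. With LPS in Cy5 the spots stood at -1.88 and -0.15, and with LPS in Cy3 at -0.90 and -1.29. All were below 0, and neither spot was 2-fold on both arrays. At 24 h the ratios were 1.07 and 0.09, a mean of 0.58 ± 0.69, with 1 of the 4 spots below 0 at -0.08. The 24 h mean lay 1.64 log2 units above that of 4 h. Leaving out ratios of exactly 1 before averaging, which moved the centre of the arrays, gave Ptgir -1.04 at 4 h and ended its call. The same change gave Cav1 1.13 at 24 h and ended its call too.

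Cav1 and Ptgir were the members with lower ratios at 4 h and higher ratios at 24 h on all arrays, and their upstream sequences are shown side by side for that reason. Both are RefSeq sequences of GRCm38.p6 on the plus strand, chr6:17306085-17306334 for Cav1 and chr7:16906240-16906489 for Ptgir, with motif matches in capitals.
Cav1: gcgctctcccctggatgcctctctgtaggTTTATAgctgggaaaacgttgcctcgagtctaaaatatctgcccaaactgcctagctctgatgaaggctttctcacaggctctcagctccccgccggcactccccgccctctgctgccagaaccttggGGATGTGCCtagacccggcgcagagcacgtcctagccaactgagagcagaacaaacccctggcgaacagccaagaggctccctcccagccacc
Ptgir: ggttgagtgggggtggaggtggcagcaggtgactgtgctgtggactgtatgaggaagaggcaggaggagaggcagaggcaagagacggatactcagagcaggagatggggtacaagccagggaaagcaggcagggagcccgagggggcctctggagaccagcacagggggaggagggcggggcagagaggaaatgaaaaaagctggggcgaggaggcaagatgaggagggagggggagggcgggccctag
The window of Cav1 held GGANNNNCC at -93, as GGATGTGCC, and TATAAA on the opposite strand at -221. A second annotated start of Cav1 and the window of Ptgir held none of the 4 motifs. Nos1, whose window is not printed, held GGANNNNCC on the opposite strand at -89 and none of the other motifs. A match is a description of letters and not a site. The table gave windows for 4 of the 6 genes, Nos1, Gch1, Cav1 and Ptgir.

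**Figure D2:**
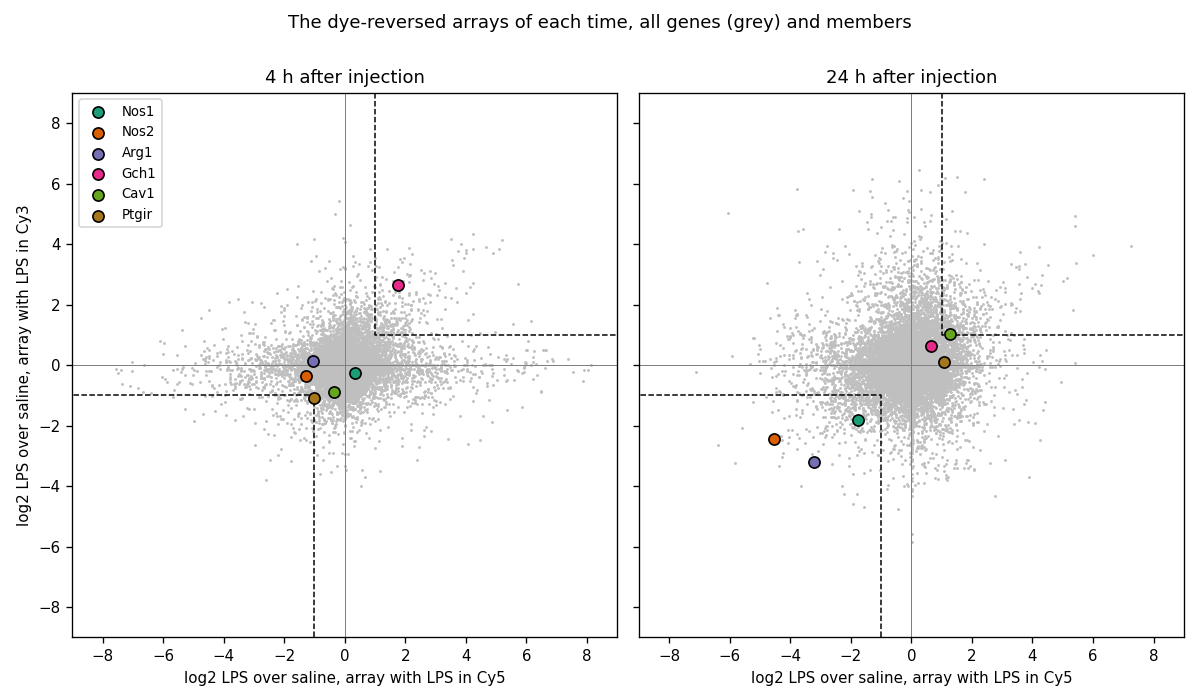
Log2 ratio of LPS over saline on the array with LPS in Cy5 (horizontal axis) against that with LPS in Cy3 (vertical axis), at 4 h and 24 h. Grey points are all 11138 genes (2 lie outside the axes), coloured points the 6 genes, and dashed corners the 2-fold call. Gch1 lies inside the upper corner at 4 h, Nos2 and Arg1 lie deep in the lower corner at 24 h, and Ptgir at 4 h and Cav1 at 24 h lie at the edge.

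The 24 h values were next set against those of 4 h. All 6 genes had means at least 2-fold apart with both arrays of one time above both of the other, a criterion that 19.8% of all genes met. Of the 6, 4 were lower at 24 h than at 4 h (Arg1, Nos2, Nos1 and Gch1, with differences of -2.75, -2.67, -1.82 and -1.57 log2 units), and Cav1 and Ptgir were higher. Gch1 differed from the other genes that were lower in that it stayed above 0 at both times. With the spot nearer to 0, 4 of the 6 genes met the criterion, beside 1372 of all genes against 2201. With the first or the second spot alone 5 of the 6 met it, beside 2318 and 2390 of all genes. At 3-fold 5 of the 6 met it, beside 1066 of all genes. For Nos1, 1 spot of 24 h at 0.22 lay above spots of 4 h at -0.94 and 0.01. The labels do not say if both times shared their saline RNA. As the ratios of both times chose the genes, nothing is read from these counts.

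Other genes of the pathway came from a list of 74 measured genes in 7 roles, the 6 members included. It held 4 called genes at 4 h and 7 at 24 h. Without the members, 2 of 68 were called at 4 h, against 3.25% of all genes, and 3 of 68 at 24 h, against 7.00%, and their median log2 ratios were -0.02 and -0.27, beside -0.02 for all genes at both times. Of 5 genes of tetrahydrobiopterin metabolism Gch1 was called alone at 4 h, and Qdpr, which regenerates the cofactor, rested on 1 array at 4.82 and 0.00. Of 9 genes of arginine supply and use Arg1 was called alone at 24 h. The arginine transporter Slc7a2 stood at -0.56 ± 0.61 at 4 h and 0.01 ± 1.13 at 24 h, and Ass1, which remakes arginine from citrulline, at -0.03 ± 0.60 and -0.47 ± 0.99.

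Among 17 genes of nitric oxide synthesis and its regulation, Nosip, whose protein binds endothelial nitric oxide synthase and shifts it away from the plasma membrane, was higher at 24 h. Its ratios of 1.89 and 2.67 gave 2.28 ± 0.55 or 4.85-fold, and its 4 spots ran from 1.69 to 3.45. At 4 h its arrays read 1.40 and -1.05, and the first is the mean of spots at 3.94 and -1.13, so 3 of its 4 spots lay near -1 and 1 was high. Ddah1 and Ddah2, which degrade the endogenous synthase inhibitor asymmetric dimethylarginine, were not called, with means of 0.53 ± 0.66 and -0.51 ± 0.37 at 24 h and of -0.08 ± 0.54 and -0.27 ± 0.52 at 4 h. Of 7 genes of the cyclic GMP arm, the cyclic GMP-dependent kinase Prkg1 was lower at 24 h, at -1.36 and -2.14. Its mean was -1.75 ± 0.55, and every one of its spots was 2-fold. Over all genes 7.00% were called at 24 h, and 3.65% with every spot required. At such shares, single calls in lists this short say little.

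The prostanoid genes gave 1 called gene besides Ptgir. Hpgd, which inactivates prostaglandins, stood at -2.61 and -1.17 at 4 h, a mean of -1.89 ± 1.02, on 1 low spot at -5.49 and -2.32 and 1 near 0 at 0.26 and -0.03. Ptgs2, the inducible cyclooxygenase, was above 0 on all 4 arrays, at 0.15 and 2.15 at 4 h and 0.63 and 1.29 at 24 h, and was called at neither time. Ptgis, which makes prostacyclin, stood at 0.31 ± 0.60 and -1.03 ± 1.41 and was not called. Of 8 prostanoid receptor and coupling genes Ptgir, which was picked on these ratios, was the one called at 4 h. None was called at 24 h by the 2-fold rule or with every spot required. Over all genes 3.25% were called at 4 h and 7.00% at 24 h, or 3.65% at 24 h with every spot required. At such shares, counts this small among 8 genes say little. Calcrl, a receptor of the vasodilators adrenomedullin and CGRP, was lower at 4 h at -1.91 ± 0.18 and higher at 24 h at 1.30 ± 0.33.

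**Figure D3:**
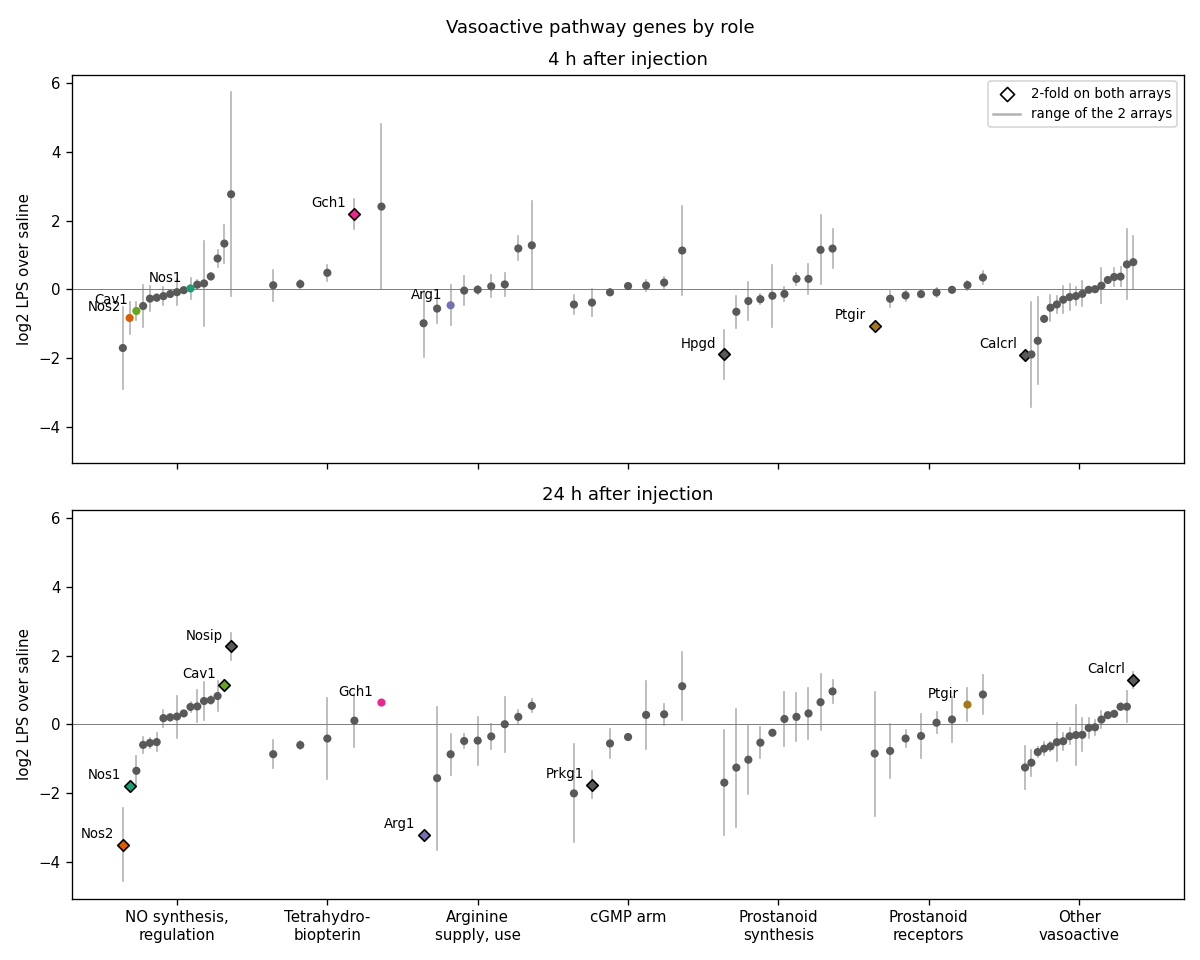
Mean log2 ratio of LPS over saline (vertical axis) for 74 vasoactive genes grouped by role (horizontal axis) at 4 h and 24 h. Points are means of 2 arrays, grey lines join the arrays, and diamonds mark genes 2-fold on both arrays. Most genes lie near 0 and several at 4 h rest on 1 array, while Nos2 and Arg1 are the lowest points of 24 h at -3.50 and -3.22.

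The genes whose ratios were most like those of each member over the 4 arrays were found by the root mean square difference, among the 4066 or 4067 genes with a spot gap of at most 1 log2 unit on every array. For Nos2 they were Sox13 at a difference of 0.33 and Foxd3 at 0.36, and for Arg1 Nmt2 at 0.47 and Ikzf1 at 0.50. Sox13 read -4.24 and -2.90 at 24 h and Foxd3 -4.43 and -2.36. Their choice by nearness to Nos2 on these arrays fixed the same order of the arrays as in Nos2. For Nos1 they were Car1 at 0.19 and Foxo1 at 0.20, and for Gch1 Rplp0 at 0.33 and Ctnnb1 at 0.42. For Cav1 they were Bud23 at 0.15 and Eola1 at 0.17, and for Ptgir Slc50a1 at 0.21 and Icmt at 0.30. Nos1 and Ptgir themselves exceeded the spot gap of 1 log2 unit that the compared genes had to keep. Their likenesses are therefore to averages of spots that disagreed. All of these are likenesses over 4 values of 4 arrays only.

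The calls were recomputed under 14 other settings of the processing. Gch1 at 4 h, Nos2 at 24 h and Arg1 at 24 h were called in 13 of them each, the exception being the setting with no array turned. With array 1 or array 2 of a time left out, Nos2 stood at -2.44 or -4.55 at 24 h. Nos1 at 24 h was called in 9 settings, Ptgir at 4 h in 7 and Cav1 at 24 h in 6. The 1.5-fold threshold, the spot farther from 0 and the settings with an array left out make a call easier to pass. Calls kept under them are therefore no support, and all these counts include them. Cav1 read 0.90 with arrays scaled to one median absolute deviation and 1.05 after quantile normalization, and was not called in either. Ptgir read -0.53 with the spot nearer to 0 on each array and was not called.

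**Figure D4:**
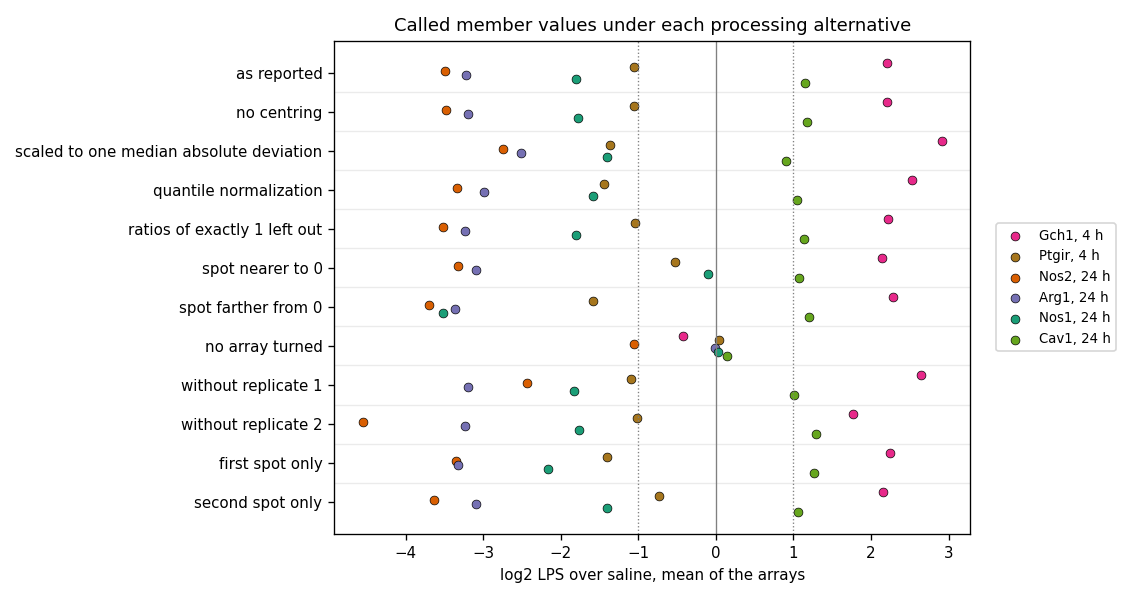
Mean log2 ratio of LPS over saline (horizontal axis) of the 6 called values under each processing setting (vertical axis). Dotted lines mark 2-fold. Nos2 and Arg1 at 24 h and Gch1 at 4 h lie beyond 2-fold in every setting drawn that turns the arrays. With no array turned, Gch1 is at -0.43 and Arg1 at -0.01, while the mean of Nos2 stays beyond 2-fold at -1.06 although its arrays lie on opposite sides of 0; with the spot nearer to 0, Nos1 at 24 h is at -0.10.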

How the data were processed

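The authors deposited log2 ratios of the 2 channels of each array, 32448 spots per array, on the Operon mouse long-oligonucleotide set, per the labels. For the scanner, background correction, dye normalization and spot filters, no step is stated in the labels. Each array had a median of 3e-07, and 10.2% to 13.4% of its spots had a ratio of exactly 1 (log2 within 1e-06 of 0). Their SD ran from 0.98 to 1.59.

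From these values, the sign of arrays with LPS in Cy3 was turned, means were taken over adjacent spots and then over a gene's oligonucleotides, and the median of all genes was subtracted per array (Python 3.11.15, pandas 2.3.3). Spot values are given after the same centring. Symbols came from the platform annotation, where 24344 spots had 1 symbol, 98 several and 8006 were not listed. The RefSeq table of GRCm38.p6 changed 0 symbols. The files name no genome build.

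The members, gene lists and rules were chosen with earlier results of these data known. The text names all 6 members, every called gene of the pathway list, a fixed set of partners where measured (Arg2 and Gchfr were not), and the 2 genes most like each member. Marker lists of smooth muscle, fibroblasts, erythrocytes and lymphocytes were also counted. Of 10 smooth muscle markers 1 was called at each time, Actg2, higher at 4 h and lower at 24 h. Of 7 fibroblast markers 0 were called at either time. Of 5 erythrocyte markers 0 were called at 4 h, and at 24 h Klf1 was higher and Car1 lower. Of 7 lymphocyte markers 0 were called at 4 h and 1, Cd5, was lower at 24 h. Of all genes, 3.25% were called at 4 h and 7.00% at 24 h. No test was run. The call rules were run on simulated data that had no outlying spots and no ratios of exactly 1, which does not give their error on these arrays. In addition, 14 alternative settings were tried. The number of arrays limits the precision.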

Additional observations from a re-analysis of the deposited data

Results flagged for a closer look

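Among the members, the called pathway genes and the fixed partners, Cav1, Ptgir, Calcrl and Cav2 lay below 0 on both arrays of 4 h and above 0 on both arrays of 24 h. The same order of signs was found in 7 of the 74 pathway genes (9.46%), Calm3, Ptger4 and Nppc being the others, and in 719 of all 11138 genes (6.46%). These opposite directions in the 2 times were not tested. Cav1 went from -0.63 to 1.15, a difference of 1.78 log2 units. Ptgir went from -1.06 to 0.58, a difference of 1.64, with 1 spot of 24 h below 0. Calcrl, the adrenomedullin and CGRP receptor, went from -1.91 to 1.30, a difference of 3.20, with all 8 spots on the side of their array. Cav2 went from -1.71 to 0.71, a difference of 2.42, of which the arrays of 4 h differed by over 2 units.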

How the results depend on the processing

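The 14 alternatives left 13 calls in place for each of Gch1 at 4 h, Nos2 at 24 h and Arg1 at 24 h. The exception in each case was the reading in which no array was turned. Nos1 at 24 h was called in 9 of 14, Ptgir at 4 h in 7 and Cav1 at 24 h in 6. These counts include the settings that make a call easier to pass, namely the 1.5-fold threshold, the spot farther from 0 and an array left out. Without turning, Gch1 at 4 h became -0.43, Nos1 at 24 h 0.03 and Ptgir at 4 h 0.04, members called fell to 0 at both times, pathway genes to 1 and 0, all genes to 158 and 411, and members and genes differing between the times to 0 and 1298.

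Values below give 4 h and then 24 h, from 2 and 4 members, 4 and 7 pathway genes and 362 and 780 genes. A 1.5-fold threshold called 9 and 14 pathway genes and 941 and 1808 genes, with 3338 differing between the times against 2201. A 3-fold threshold called 1 member at 4 h, 2 and 4 pathway genes and 126 and 235 genes, with 5 members and 1066 genes differing. Requiring every spot left 1 and 2 members, 2 and 4 pathway genes and 175 and 406 genes. The spot nearer to 0 gave 1 and 2 members, 2 pathway genes at 4 h and 204 and 462 genes. With it 4 members and 1372 genes differed. The spot farther from 0 gave 12 pathway genes at 24 h and 745 and 1590 genes. Scaling to one median absolute deviation gave 557 and 424 genes and quantile normalization 561 at 4 h and 4 pathway genes at 24 h. Without ratios of exactly 1, 1 member was called at 4 h and 3 at 24 h, beside 384 and 806 genes. The first spot alone, an alternative added after seeing the data, gave 1 and 3 members, 2 pathway genes at 4 h and 410 and 844 genes. The second, added likewise, gave 1 and 2 members and 410 and 874 genes. With 1 array per time, 2 to 4 members were called at 4 h, 11 to 19 and 14 to 25 pathway genes and 1414 to 2317 and 3239 to 3408 genes, with 3873 to 4270 differing. Fewer arrays must pass there. The thresholds, the every-spot rule and the spot farther from 0 set the direction of their changes by construction. The spot nearer to 0 makes most calls harder to pass. With no array turned, the genes called are those counted above as 2-fold in opposite directions. The cause of the other changes was not tested.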

Other observations

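Several pathway genes that were not called had a large ratio on 1 array, a group chosen after their values were seen. Prmt1, an arginine methyltransferase whose products precede the synthase inhibitor asymmetric dimethylarginine, read 5.73 and -0.19 at 4 h. Gucy1a1, a subunit of soluble guanylate cyclase, read 2.43 and -0.17. Otc, the urea cycle enzyme ornithine transcarbamylase, read -3.65 and 0.52 at 24 h, and Vasp, a target of cyclic GMP-dependent kinase, -3.43 and -0.58. Odc1, which turns ornithine into polyamine precursors, was above 0 on both arrays of 4 h at 0.84 and 1.54 and below 0 on both of 24 h at -0.26 and -0.70.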
